A study of Drosophila melanogaster with 2 samples.

Results

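The 9 genes described here encode the core of the synaptic vesicle release machinery of Drosophila melanogaster. They are nSyb, Syx1A, Snap25, Syt1, unc-13, brp, Rab3, Syn and Csp, a list of vesicle and active zone genes set by name. All 9 were found by their FlyBase gene numbers in both deposited tables, out of 12083 genes listed in at least 1 of them. Whole adult heads of the white-eyed strain w1118 were sequenced, with 1 library from flies given sucralose in the control diet and 1 library from flies on the control diet alone. Sucralose is a chlorinated sweetener from which animals draw hardly any energy. Diets began at an adult age of 4 to 7 days and lasted 6 days, and the heads came from adults aged 10 to 14 days. The labels give neither the sex of the flies nor the number of heads per library. The title of the study asks whether sucralose raises food intake through neuropeptide Y signalling and a fasting response of neurons.

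Neurons store transmitter in small vesicles that dock at the active zone, a patch of presynaptic membrane facing the target cell. A vesicle protein, the v-SNARE, winds together with SNARE proteins of the target membrane, and this bundle pulls the membranes together. Priming factors bring the bundle to a ready state, and a calcium sensor on the vesicle triggers fusion when calcium enters. Fly heads are rich in such synapses, in the brain and at the terminals of photoreceptors.

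The sucralose library held 10.4 M uniquely assigned reads and the control library 10.3 M. Each diet had only 1 library, so replicate spread is unknown, the diets could not be tested and p-values are absent. Folds are sucralose over control after scaling for composition, or the inverse where a gene is called lower. Brackets after a fold give its 95% interval (Clopper-Pearson, exact), which reflects the counting error of these 2 libraries and nothing of the variation between flies. Levels are in RPKM, reads per kilobase of gene model scaled to a fixed library size, with a 95% exact Poisson interval where one is given. Photoreceptor genes checked the tissue: their summed level was 55010 RPKM in the sucralose library and 40266 RPKM in the control library. Neuronal marker genes summed to 992 RPKM in the sucralose library and 1133 RPKM in the control library. Their summed reads went the other way, with 96192 in the sucralose library and 93169 in the control library, a fold of 1.01. Ank2 alone gave 34090 of these reads in the sucralose library and 24251 in the control library. Of the 12 neuronal markers tested, 8 were lower and 4 higher, so the summed reads do not stand for most of them.

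The 9 genes differed little between the libraries and not in a shared direction. Together they held 77612 reads in the sucralose library and 76525 reads in the control library, 0.744% and 0.745% of all reads, and the fold of these sums was 0.995 (0.985 to 1.005). Of the 9 genes, 3 were above and 6 below 0 in log2 difference, with a median of -0.12. All genes with at least 50 reads over both libraries, 8889 in number, had a median of -0.0016, with 49.6% of them above and 50.4% below 0. At the 1.2-fold mark, 1 of the 9 genes was lower, which was Csp, none was higher and 8 lay between. Among the 8889 genes, 15% were at least 1.2-fold lower, 11.9% at least 1.2-fold higher and 73.1% between. None of the 9 reached 1.5-fold, where the shares of all genes were 4.12% lower, 1.96% higher and 93.9% between. A count of 1 in 9 is close to those shares, so the number past the mark does not set these genes apart.

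**Figure D1:**
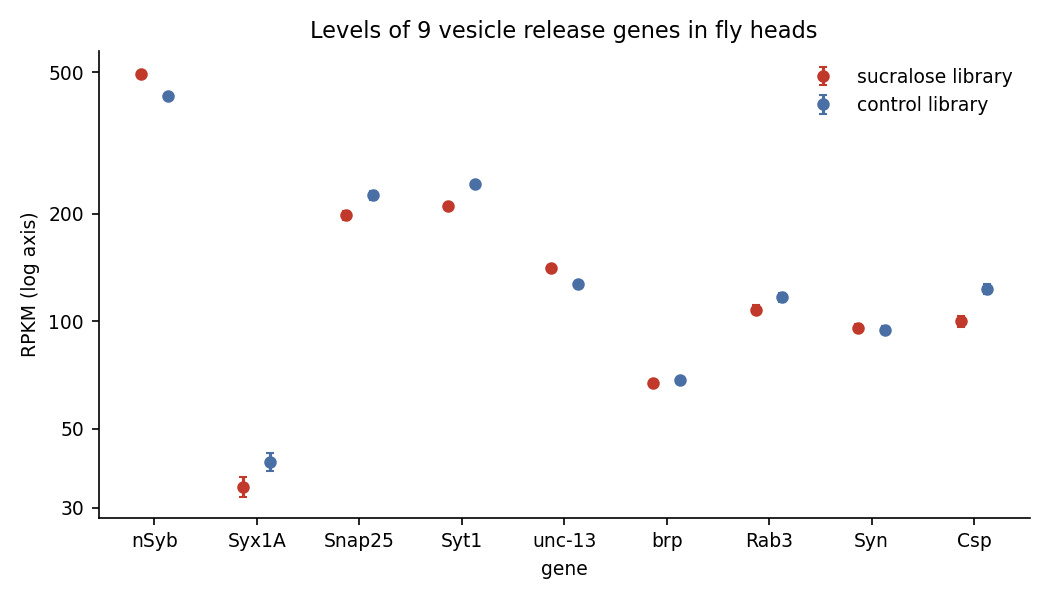
Level in RPKM (vertical log axis) of each of the 9 genes (horizontal axis) in the sucralose library (red) and the control library (blue), with 95% exact Poisson intervals, often smaller than the point. nSyb was the most abundant at 493 RPKM in the sucralose library and 429 RPKM in the control library, and Syx1A the least at 34.4 RPKM and 40.4 RPKM.

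The SNARE genes parted from one another. nSyb (FBgn0013342) encodes neuronal synaptobrevin, the v-SNARE of synaptic vesicles. It had 18360 reads and a level of 493 RPKM (486 to 500.3) in the sucralose library, against 15723 reads and 429 RPKM (422 to 436) in the control library. These intervals do not overlap, and the fold was 1.15-fold higher (1.12 to 1.17), the highest of the 9.

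Both partner SNAREs of the target membrane were lower. Syx1A (FBgn0013343), the syntaxin of the presynaptic membrane, had 940 reads and 34.4 RPKM (32.2 to 36.7) in the sucralose library, against 1086 reads and 40.4 RPKM (38.0 to 42.9) in the control library. That is 1.18-fold lower (1.08 to 1.29), and the levels do not overlap within counting error. Snap25 (FBgn0011288) encodes the SNARE that contributes a pair of helices to the bundle. Its 4525 reads and 199 RPKM (193 to 205) in the sucralose library stood against 5057 reads and 225 RPKM (219 to 232) in the control library, 1.14-fold lower (1.09 to 1.19). The libraries again do not overlap. In the BDGP6.54 annotation 10.7% of the exon bases of Syx1A are shared with eIF4EHP on the same strand, so some of its reads may belong to that gene.

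Ratios between genes need no scaling factor, because the total of each library cancels. The level of nSyb per level of Syx1A was 14.3 in the sucralose library and 10.6 in the control library, a change of 1.35-fold (1.23 to 1.48, counting error by the normal approximation on the log scale). The ratio of nSyb to Snap25 was 2.48 in the sucralose library and 1.90 in the control library, a change of 1.31-fold (1.25 to 1.37). Snap25 per Syx1A hardly moved, at 5.77 in the sucralose library and 5.58 in the control library, a change of 1.03-fold with an interval that includes 1 (0.939 to 1.14). The pair of target-membrane SNAREs thus kept their proportion within counting error, while the v-SNARE was higher relative to each.

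The genes of calcium sensing and priming also parted. Syt1 (FBgn0004242) encodes synaptotagmin 1, the calcium sensor of fast release. It had 15029 reads and 210.2 RPKM (207 to 214) in the sucralose library, against 17057 reads and 242 RPKM (239 to 246) in the control library. These do not overlap, and the gene was 1.16-fold lower (1.13 to 1.18). unc-13 (FBgn0025726) encodes the priming factor that readies docked vesicles for fusion. Its 17659 reads and 141 RPKM (139 to 143) in the sucralose library stood against 15700 reads and 127 RPKM (125 to 129) in the control library, 1.10-fold higher (1.08 to 1.13). unc-13 and nSyb were the only members of the 9 whose intervals lay wholly above 1. The ratio of unc-13 to Syt1 was 0.671 in the sucralose library and 0.526 in the control library, a change of 1.28-fold (1.24 to 1.32). In the annotation 25.2% of the exon bases of unc-13 are shared with genes annotated on the opposite strand, and whether the counts use strand is not given in the sources used here.

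The active zone scaffold gene brp did not differ beyond counting error. brp (FBgn0259246) encodes Bruchpilot, a relative of the mammalian ELKS/CAST proteins that builds the T-shaped density of fly active zones and clusters calcium channels there. It had 8135 reads and 67.0 RPKM (65.6 to 68.5) in the sucralose library, against 8181 reads and 68.5 RPKM (67.0 to 70.0) in the control library. The intervals overlap, and the fold was 0.976 (0.946 to 1.01). That interval leaves room for a difference of at most 1.06-fold lower by counting error alone.

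The genes of vesicle supply and upkeep ranged from no difference to the lowest of the 9. Syn (FBgn0004575) encodes synapsin, a phosphoprotein that holds vesicles in reserve. It had 5795 reads and 95.8 RPKM (93.3 to 98.2) in the sucralose library, against 5643 reads and 94.7 RPKM (92.2 to 97.2) in the control library, a fold of 1.01 (0.971 to 1.05). The libraries overlap for this gene, and 4.29% of its exon bases are shared with Timp on the opposite strand.

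Rab3 (FBgn0005586) encodes the vesicle GTPase that, in flies, sets how Bruchpilot is shared out among release sites. Its level was 108 RPKM (105 to 111) from 4216 reads in the sucralose library, against 117 RPKM (113 to 120.3) from 4502 reads in the control library. It was 1.09-fold lower (1.04 to 1.14), with no overlap of the levels.

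Csp (FBgn0004179) encodes cysteine string protein, a vesicle co-chaperone that in mice keeps SNAP-25 in a foldable state. Its 2953 reads and 99.98 RPKM (96.4 to 103.7) in the sucralose library stood against 3576 reads and 123 RPKM (119 to 127) in the control library. It was 1.23-fold lower (1.18 to 1.30), and the levels do not overlap. Csp and Snap25, whose protein is a client of the Csp protein in mice, were both lower, among the 6 of 9 genes below 0. A link between their RNA levels was not tested. The ratio of Snap25 to Csp was 1.99 in the sucralose library and 1.83 in the control library, a change of 1.08-fold (1.02 to 1.15).

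**Figure D2:**
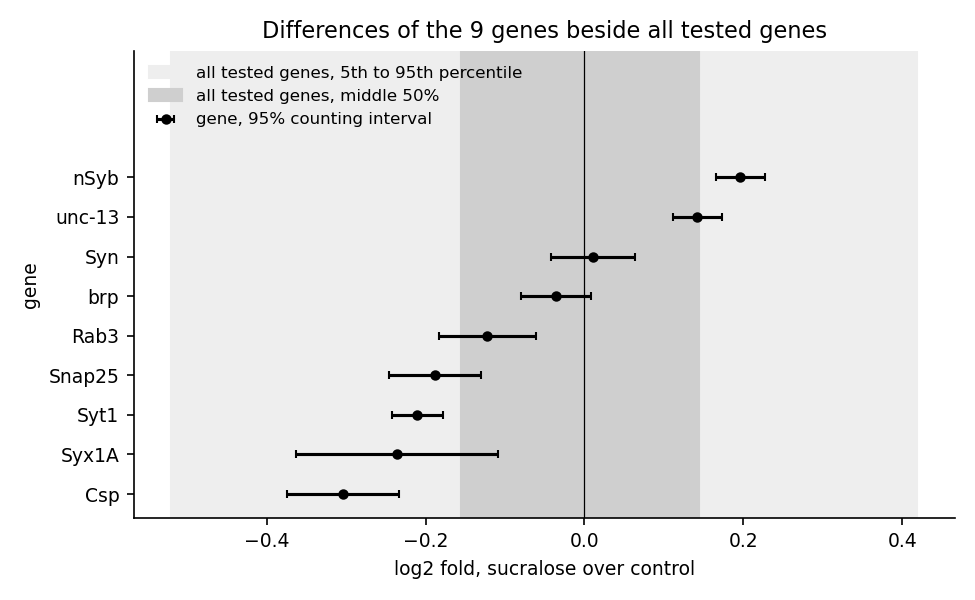
Log2 fold, sucralose over control (horizontal axis), of each of the 9 genes (vertical axis) with its 95% counting interval, over the middle 50% (dark grey) and the 5th to 95th percentile (light grey) of 8889 tested genes. All points lie within the light band, nSyb above and Snap25, Syt1, Syx1A and Csp below the dark band.

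Set beside the rest of the transcriptome, these differences were ordinary in size. The middle 50% of tested genes lay between -0.16 and 0.14 in log2 difference, and 4 of the 9 genes (unc-13, Syn, brp and Rab3) fell inside that range. Another 4 (Snap25, Syt1, Syx1A and Csp) were below it and 1 (nSyb) above it. Counted from the lowest of 8889 differences, Csp ranked 1112 and nSyb ranked 7285. The range spanned by the 9 genes, -0.30 to 0.20, held 69.5% of all tested genes. Among the 2239 genes with at least as many reads as Syx1A, the least read of the 9, the middle 50% was narrower, from -0.126 to 0.123. Beside these deeper genes unc-13, at 0.142, also lay above the middle 50%, and Rab3, at -0.122, was just inside it. Their 5th and 95th percentiles were -0.42 and 0.33, and all 9 genes lay between them.

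Reads were many enough that 7 of the 9 folds had intervals without 1, of which 2 lay above and 5 below it. The same share was not counted over all tested genes, so this count does not set the 9 genes apart. The intervals of Syn and brp included 1. With 940 to 18360 reads per gene and library, counting error is small, and these intervals do not measure how much 2 batches of heads on the same diet would differ.

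Levels per length ordered the genes in nearly the same way in both libraries. In the sucralose library the order was nSyb, Syt1, Snap25, unc-13, Rab3, Csp, Syn, brp and Syx1A, and Csp and Syn were the only neighbours whose intervals overlapped. In the control library Csp stood above Rab3, and the neighbours unc-13 and Csp, and Csp and Rab3, overlapped. The highest level exceeded the lowest by 14.3-fold in the sucralose library and 10.6-fold in the control library. nSyb ranked 160 and 173 among all listed genes by RPKM, and Syx1A ranked 2305 and 2033, in the sucralose and control libraries. Syx1A was thus the scarcest per length of the 3 SNARE genes among the 9, although RPKM depends on the gene model used and the deposited model of Syx1A, 2619 bases, is shorter than the 4164 exon bases of the BDGP6.54 annotation.

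**Figure D3:**
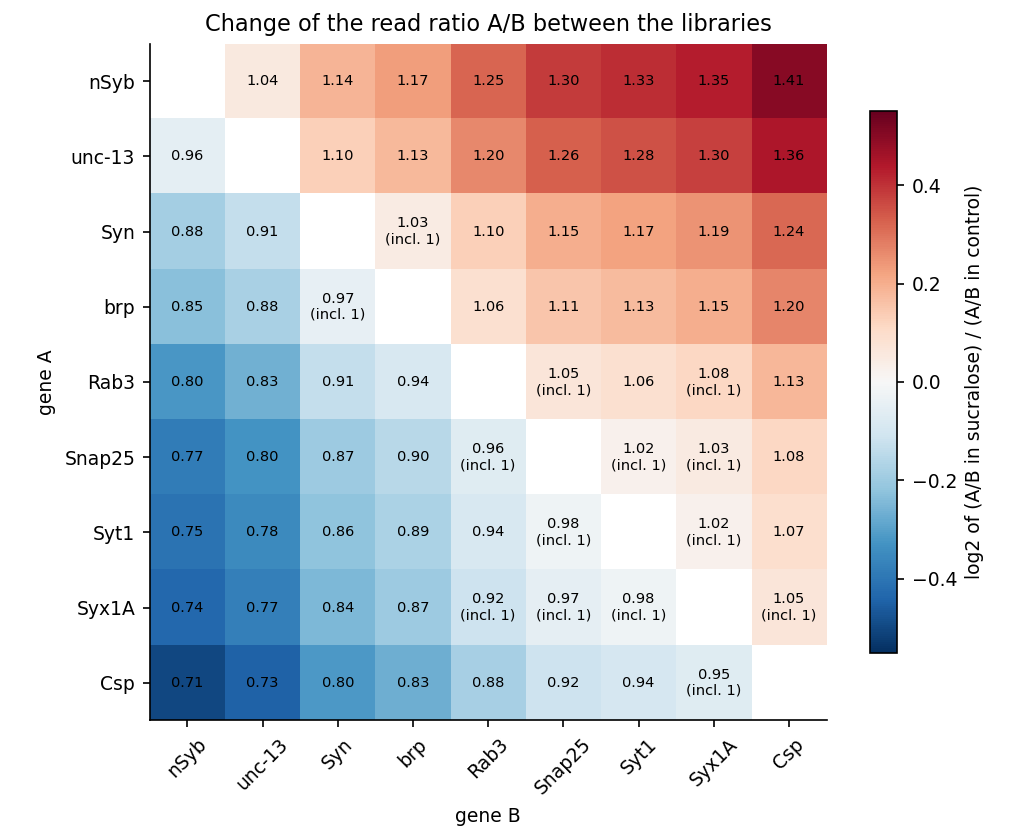
For each pair of genes, the read ratio of gene A (rows) to gene B (columns) in the sucralose library divided by the same ratio in the control library, printed in the cell and coloured on a log2 scale. Genes run from the highest fold (nSyb) to the lowest (Csp), and "(incl. 1)" marks the 7 of 36 pairs whose 95% counting interval includes 1.

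Over all 36 pairs of the 9 genes, the ratio of reads differed between the libraries beyond counting error in 29 and not in 7. It differed by at least 1.2-fold in 12 pairs and by at least 1.5-fold in none. The 36 pairs are built from the same 9 genes and so are not separate results. Pairs of other genes were not counted, so these counts do not set the 9 genes apart. The largest change was that of nSyb to Csp, 4.93 in the sucralose library and 3.49 in the control library, or 1.41-fold (1.34 to 1.49). Within Rab3, Snap25, Syt1, Syx1A and Csp, the 5 genes with intervals below 1, the largest pair change was 1.13-fold, between Rab3 and Csp. These 5 genes were picked by their folds in these data, so small changes among them follow from that choice. At the other end, nSyb and unc-13 were picked in the same way. Their ratio of 3.50 in the sucralose library and 3.37 in the control library differed by 1.04-fold (1.01 to 1.07). These ratios do not depend on how the libraries were scaled, but they carry any difference in tissue makeup between the libraries.

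Gene-model length moved with the differences. Tested genes were split into 10 classes of rising deposited length: the median log2 difference was -0.037 in the shortest class, up to 847 bases, and 0.053 in the longest, from 5342 bases. Across the 8889 genes Spearman's rho of length and difference was 0.15, a description over genes that share the same 2 libraries and are not independent replicates. Over the 9 genes it was 0.50, and over 53 other synaptic genes of the release pathway 0.45. Of the 9, 4 lie in the longest class (Syt1, unc-13, brp and Syn). Against the median of their own length class, nSyb stood at 0.17, unc-13 at 0.089, Syn at -0.042, brp at -0.089, Rab3 at -0.15, Snap25 at -0.18, Syx1A at -0.22, Syt1 at -0.26 and Csp at -0.29. On that scale Syn is below 0 rather than above it, and Syt1 joins Csp past 1.2-fold lower. nSyb, at 3570 bases, and Syt1, at 6857 bases, did not follow the order of length. The part of length in the differences was not tested.

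**Figure D4:**
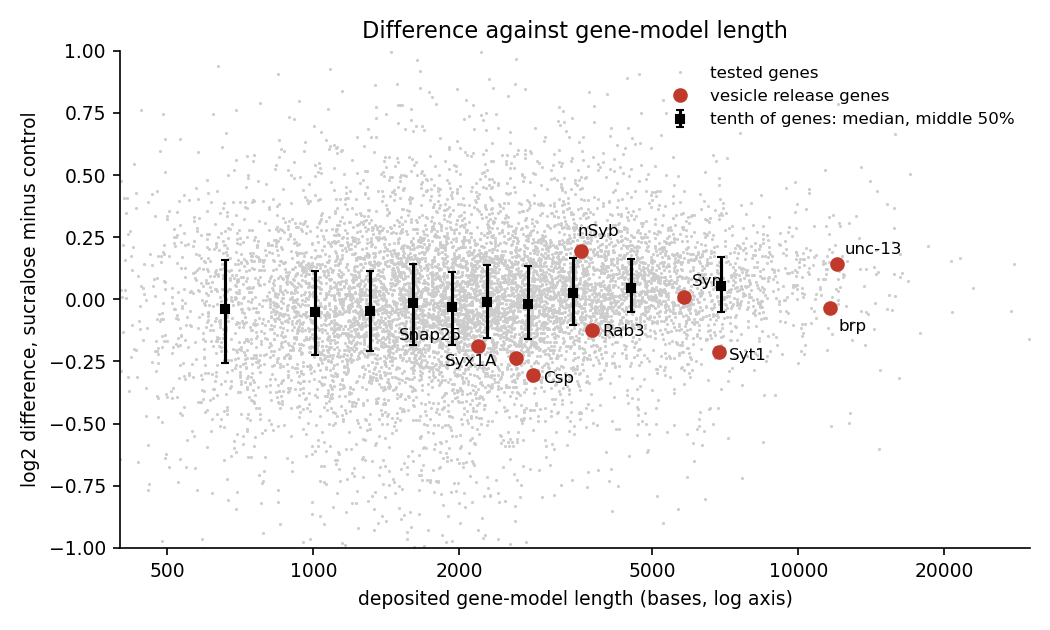
Log2 difference, sucralose minus control (vertical axis), against deposited gene-model length in bases (horizontal log axis) for tested genes (grey), the medians and middle 50% of 10 length classes (black) and the 9 vesicle release genes (red). Class medians were -0.037 in the shortest and 0.053 in the longest class, and 222 of 8889 genes lie outside the axes.

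Reads covered the gene models of the 9 genes almost completely, which is the other deposited readout. For 8 of the 9, over 98% of the bases of the model were covered in each library. Syx1A was the exception, with 82.5% in the sucralose library and 82.4% in the control library, so nearly the same share of its model lacked reads in both libraries. The largest gap between libraries for any of the others was that of Rab3, at 99.8% in the sucralose library and 99.4% in the control library.

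The wider release pathway was described with 4 lists of other synaptic genes. Of 62 genes listed, 53 were found and had at least 50 reads. Their median was -0.083, with 16 above and 37 below 0, beside 49.6% and 50.4% of all tested genes. None was at least 1.2-fold higher and 7 were at least 1.2-fold lower, beside 11.9% and 15% of all tested genes. None reached 1.5-fold in either direction, beside 1.96% of all tested genes at least 1.5-fold higher and 4.12% at least 1.5-fold lower.

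**Figure D5:**
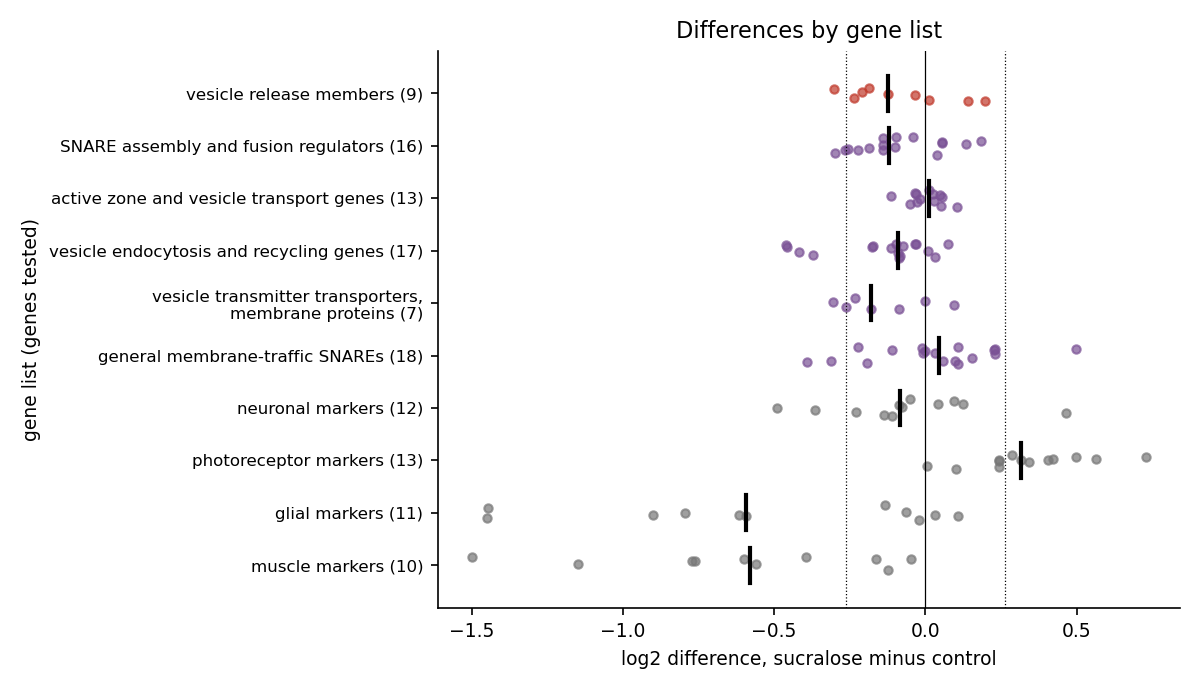
Log2 difference, sucralose minus control (horizontal axis), of each tested gene in 10 lists (vertical axis, number of tested genes in brackets), with the list median as a black bar and dotted lines at 1.2-fold. The synaptic lists sit between the dotted lines for the most part, photoreceptor markers lie to the right (median 0.32), and glial (-0.59) and muscle markers (-0.58) to the left.

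Genes that regulate SNARE assembly and fusion had a median near that of the 9 release genes. Of 16 tested, 5 were above and 11 below 0, beside 49.6% and 50.4% of all genes. At least 1.2-fold lower were 2, beside 15% of all genes, none was as much higher, and the median was -0.12. Rop, the fly Munc18 protein that binds syntaxin, had 3810 reads and 138 RPKM in the sucralose library and 4597 reads and 169.7 RPKM in the control library, 1.23-fold lower (1.18 to 1.28). Syt7, a synaptotagmin of high calcium affinity in mammals, was at 77.3 RPKM in the sucralose library and 92.6 RPKM in the control library, 1.203-fold lower (1.14 to 1.27). The list's count past the mark was 1 with total counts, DESeq2 size factors, the upper quartile or a pseudocount of 5 CPM, and 0 when centred on neuronal markers. Frq2, a frequenin calcium sensor with a close relative, Frq1, whose reads may be divided with it, was 1.19-fold lower (1.11 to 1.29). The most abundant member was cpx, complexin, which clamps the SNARE bundle before calcium enters. It stood at 717 RPKM in the sucralose library and 813 RPKM in the control library, 1.14-fold lower (1.12 to 1.16), and exceeded nSyb in both. That order depends on the gene model, since the deposited model of cpx, 3767 bases, is shorter than its 11414 exon bases in the BDGP6.54 annotation.

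Active zone and vesicle transport genes had the list median closest to 0 with the main scaling. There brp was at -0.036 and unc-13 at 0.14. Of 13 tested, 7 were above and 6 below 0, beside 49.6% and 50.4% of all genes. None was past 1.2-fold, beside 11.9% of all genes higher and 15% lower. The median was 0.012, or -0.028 when each gene was set against genes of like length. Centred on neuronal markers it was 0.095, farther from 0 than endocytosis genes at -0.0085 and SNARE regulators at -0.037. RhoGAP100F, the fly Syd-1 protein that seeds new active zones, was 1.07-fold higher (1.02 to 1.13), with 27.4 RPKM in the sucralose library and 25.4 RPKM in the control library. Rim, a scaffold that ties vesicles to calcium channels, had a fold of 1.04 (0.999 to 1.08). Spn, spinophilin, a scaffold that works against Syd-1 in flies, was 1.08-fold lower (1.03 to 1.14). CASK, a membrane-associated scaffold and the most abundant of the list, had a fold of 1.03 (0.994 to 1.08), although 28.0% of its exon bases are shared with a noncoding gene on the same strand. The genes of this list are long, with a median of 7460 bases.

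Of 17 vesicle endocytosis and recycling genes tested, 3 were above and 14 below 0, beside 49.6% above and 50.4% below among all genes. At least 1.2-fold lower were 4, beside 15% of all genes, none was as much higher, and the median was -0.092. A pair of subunits of the AP-2 clathrin adaptor, which gathers vesicle proteins for retrieval, were among them. AP-2mu had 34.6 RPKM in the sucralose library and 47.5 RPKM in the control library, 1.38-fold lower (1.25 to 1.52). AP-2sigma had 59.0 RPKM in the sucralose library and 78.8 RPKM in the control library, 1.34-fold lower (1.19 to 1.52). The beta subunit of the list, AP-1-2beta, did not differ beyond counting error, with a fold of 0.949 (0.888 to 1.01). AP-2alpha was not matched, so these values do not describe the whole adaptor. Amph, amphiphysin, which in flies organises membrane tubules of muscle rather than vesicle retrieval, was 1.38-fold lower (1.31 to 1.45), at 77.1 RPKM in the sucralose library and 106 RPKM in the control library. Beside this, all 10 muscle markers tested were below 0, against 50.4% of all genes, with a median of -0.58. The muscle markers had summed levels of 691 RPKM in the sucralose library and 1029.6 RPKM in the control library. Their part in the Amph value was not tested. The remaining gene past the mark, named after its value was seen, was fwe, a vesicle calcium channel protein, at 87.0 RPKM in the sucralose library and 112 RPKM in the control library, 1.29-fold lower (1.23 to 1.36). shi, the dynamin that cuts vesicles from the membrane and the most abundant of the list, was 1.13-fold lower (1.09 to 1.16).

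Genes of transmitter loading and other vesicle membrane proteins had the lowest median of the synaptic lists. Of 7 tested, 1 was above and 6 below 0, beside 49.6% and 50.4% of all genes. At least 1.2-fold lower was 1, beside 15% of all genes, and the median was -0.18. That count was 3 when genes were set against those of like length and 0 when centred on neuronal markers. VGAT, which loads GABA into vesicles, had 1012 reads and 36.7 RPKM in the sucralose library and 1228 reads and 45.2 RPKM in the control library, 1.24-fold lower (1.14 to 1.35). VGlut, which loads glutamate, was 1.199-fold lower (1.14 to 1.26), just under the mark. Sap47, a synapse-associated protein and the most abundant of the list, was 1.18-fold lower (1.15 to 1.204), with 201 RPKM in the sucralose library and 235 RPKM in the control library. VAChT, which loads acetylcholine, has a current identifier that neither library lists, so it is not analysed here. It may stand under an older identifier.

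Cell type markers moved with the libraries and bear on any synaptic gene, since fewer cells of a type and less RNA per cell cannot be told apart in whole heads. Among 12 neuronal markers tested, the list nearest in cell type to the 9 genes, 4 were above and 8 below 0. The shares of all tested genes were 49.6% and 50.4%. At least 1.2-fold higher was 1 and at least 1.2-fold lower were 2, beside 11.9% and 15% of all tested genes. None was past 1.5-fold, beside 1.96% of all tested genes higher and 4.12% lower. The neuronal list ranged from -0.49 to 0.46, with a median of -0.083. Setting that median to 0 raises every gene by the same amount, so that all tested genes then had a median of 0.082. By that shift alone, Csp at -0.22 was no longer past 1.2-fold lower, nSyb at 0.28 was past 1.2-fold higher, brp at 0.047 was above 0, and the median of the 9 genes was -0.039. All 13 photoreceptor markers tested were above 0, beside 49.6% of all tested genes, with a median of 0.32. At least 1.2-fold higher were 8 of them, beside 11.9% of all tested genes. Of 11 glial markers, 9 were below 0 and 6 passed 1.5-fold lower, beside 50.4% and 4.12% of all tested genes. The glial median was -0.59, and the glial markers summed to 948 RPKM in the sucralose library and 1466 RPKM in the control library. Gut markers summed to 177 reads in the sucralose library and 2382 reads in the control library, with 3 of 10 (Jon99Cii, Jon25Bi and LysC) at 0 reads in the sucralose library. Fat body markers had 3 members above and 4 below 0 of 7 tested, with a median of -0.10, or 0.023 with no minimum of reads. Past 1.5-fold were 2 members in each direction, beside 1.96% of all tested genes higher and 4.12% lower. Of these markers, fit had 13 reads in the sucralose library and 86 in the control library, and Lsp2 had 32 reads in the sucralose library and 177 in the control library. On the other side, Yp1 had 113 reads in the sucralose library and 20 in the control library, and Yp3 had 1062 reads in the sucralose library and 569 in the control library. What part these tissues have in the differences of the vesicle release genes was not tested.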

How the data were processed

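Head RNA was isolated with Trizol and sequenced from standard Illumina libraries, per the labels' protocols. The authors deposited 1 table per library. Per the file headers it holds raw counts of unique reads per gene, whose sum equals the header's total, the gene-model length, the percent of the model that reads cover, and RPKM. The deposited RPKM followed from counts and lengths within a relative difference of 4.7e-08. Model lengths differed between the tables for 7 rarely read genes, none of them described. The aligner, build, annotation and strandedness were not given in the sources used here, so no coordinates are printed.

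Symbols were matched through a gene identifier table, where 496 of 12083 identifiers had no match (6.12% of sucralose and 6.07% of control reads). Of 160 listed genes 15 were not matched to the tables. Counts were scaled by TMM (edgeR 4.0.16, R 4.3.3), with factors of 1.00 and 0.998 for sucralose and control. Differences are log2(CPM + 0.5), sucralose minus control, for genes with at least 50 summed reads. Exon overlap came from the BDGP6.54 annotation. Python 3.11.15 with SciPy 1.17.1 did the rest, and the fold and interval code was checked on simulated data.

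The members and lists were chosen with earlier results of these data known. All 9 members are named. From each further list, among genes with at least 200 summed reads, the 3 with the largest difference and the most abundant are named. Alternatives were other scalings (total counts, DESeq2 1.42.0 size factors, upper quartile, without the 20 most abundant genes), centring on neuronal markers or on genes of like length, pseudocounts, floors, the mean, and leaving out each member. Since PCR copies were not marked by molecular identifiers, intervals cover the counting error only.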

Additional observations from a re-analysis of the deposited data

How the results depend on the processing

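No paired analysis was possible because each diet has 1 library. The differences of the 9 genes and their median stayed within counting error of the reported values under total counts, DESeq2 size factors, the upper quartile, scaling without the 20 most abundant genes and pseudocounts of 0.1 and 5 CPM, and the median also with the mean in its place or with any 1 gene left out. Centring on neuronal markers moves every value up by construction: nSyb to 0.28, Snap25 to -0.10, Syt1 to -0.13, unc-13 to 0.23, brp to 0.047, Rab3 to -0.039, Syn to 0.094, Csp to -0.22 and the median of the 9 to -0.039, with 1 gene then at least 1.2-fold higher and 0 at least 1.2-fold lower. Centring on genes of like length gave -0.26 for Syt1, 0.089 for unc-13, -0.089 for brp and -0.042 for Syn, with 2 genes at least 1.2-fold lower. Over all genes, the 1060 at least 1.2-fold higher became 1767 with neuronal centring, 694 with a pseudocount of 5 CPM, 1800 with no floor and 702 with a floor of 200 reads, and the 1331 at least 1.2-fold lower became 2055 with no floor. At 1.5-fold the 174 higher became 284, 61, 459 and 84 in the same order of settings, and the 366 lower became 206 with 5 CPM, 695 with no floor and 216 with the higher floor. A larger pseudocount draws log2 differences toward 0 by construction, most for genes with few reads. Fewer or more genes enter with the floors. Among values of the other lists under these settings, 302 stayed and 28 moved, which for a median means beyond the counting error of its middle genes and for a count by over 1.5 times, and none past 1.2-fold changed sign. Depth does not limit the 9 genes, the rarest of which had 940 reads, but the single library per diet does.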

Other observations

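SNAREs of general membrane traffic, which act at the endoplasmic reticulum, Golgi and endosomes of all cells, were spread around 0. Of 18 tested, 10 were above and 8 below 0, 1 passed 1.2-fold higher and 2 passed 1.2-fold lower, beside 11.9% and 15% of all genes. The higher count was 4 when centred on neuronal markers and 3 when set against genes of like length, and the lower count was 1 with neuronal centring or a pseudocount of 5 CPM. The list median was 0.046. Syx8, an endosomal syntaxin, had 316 reads in the sucralose library and 218 in the control library, 1.42-fold higher (1.19 to 1.70). Syx13, another endosomal syntaxin, had 341 reads in the sucralose library and 440 in the control library, 1.32-fold lower (1.14 to 1.52). Vti1a was 1.25-fold lower with an interval that includes 1 (0.999 to 1.57), and 34.0% of its exon bases are shared with RabX6 on the opposite strand. Syb, the widely expressed synaptobrevin related to nSyb, had 897 reads in the sucralose library and 880 in the control library, with a fold interval of 0.910 to 1.10, against 1.12 to 1.17 for nSyb.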
